A study of Rattus norvegicus with 24 samples.

Results

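Rat neurospheres that received Noggin and 1 Gy of X-rays (NGy) were compared with untreated neurospheres (C) by RNA sequencing. The members are the 4 NGy samples (MO17 to MO20) and 3 of the 4 C samples (MO1, MO3 and MO4), chosen by their treatment, and make up 7 of the 24 samples of the series. All groups were neural progenitor cells of Sprague Dawley rat brain, taken on embryonic day 15 and grown in ultra-low attachment plates with epidermal and fibroblast growth factor, where they form floating spheres. C samples had neither compound nor radiation. NGy samples had 1 Gy on day 3 after seeding, and 5 µM Noggin on day 2 and again on day 3 after the radiation. The study places RNA extraction 7 days after irradiation, while its methods describe culture for up to 7 days. Noggin alone (N) and 1 Gy alone (CGy), with 4 samples each, held each of the 2 treatments by itself. Ascorbic acid at 200 µM without (A) and with 1 Gy (AGy), also 4 samples each, gave a second pair of groups that differ by radiation and share no sample with NGy or C. The labels name no separate fetus, litter or culture for a sample, so p-values measure the spread between these samples, which may be technical. RNA was pooled over the cells of a culture, so fewer cells of a type and less RNA per cell cannot be told apart.

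Noggin is a secreted protein that binds bone morphogenetic proteins (BMPs) and keeps them from their receptors. In neural progenitors BMP signals act through SMAD proteins and favour an astrocyte fate, and Noggin is used in culture to hold that signal back. Ionising radiation breaks DNA, activates the p53 response and stops dividing cells, and progenitors are among the most sensitive cells of the brain. The comparison of NGy with C shows both treatments at once, and the N and CGy groups hold each treatment on its own. The deposited tables name genes by Ensembl identifier without a symbol, so the roles of single genes are not stated, marker genes of progenitors, astrocytes or neurons were not analysed here, and a gene is called below by identifier or by the rank of its change.

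TPM is a transcript abundance scaled by length and by the total of the sample. The TPM of the listed genes summed to between 617969 and 627580 in the 3 C samples and to between 650049 and 655264 in the NGy samples, so the groups did not overlap in this sum. C samples had 9478 to 9520 genes at 1 TPM or more and NGy samples 9386 to 9497. The fourth control, MO2, had 8627 such genes. It was left out here, as the study did. TPM carry no record of the reads behind them, and the depth of each sample is unknown.

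In NGy against C, 37 genes were called higher and 28 lower of 9772 tested, which is 0.379% and 0.287% of the genes. A call needed a Benjamini-Hochberg adjusted p of at most 0.05 in limma and a change of at least 1.5-fold on the log2(TPM + 1) scale. The rises had a median of 0.97 (log2; range 0.60 to 2.10) and the falls a median of -0.79 (range -3.21 to -0.59), while the median over all tested genes was 0.03. In all 65 called genes the 3 C values and the 4 NGy values did not overlap, as was so in 23.3% of the tested genes. The count depended on the samples used: without 1 of the NGy samples it was 1 (MO17), 2 (MO18), 0 (MO19) or 5 (MO20), without MO1 8, without MO3 175 and without MO4 74, and with MO2 among the controls it was 2. Without MO19, 1638 genes had an unadjusted p under 0.05. The changes themselves moved less when a sample was left out. The sign of the 65 genes could not change when 1 of the 7 samples was left out, because their groups did not overlap. Between 61 and 65 of them stayed past 1.5-fold, and their adjusted p reached at most 0.147. With MO2 kept, 64 of the 65 had the same sign and 49 stayed past 1.5-fold. With TPM rescaled to a common sum of 1000000, 54 genes were called higher and 94 lower, so the share of rises depended on the scaling, but the 65 genes were called with the same sign there too.

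**Figure D1:**
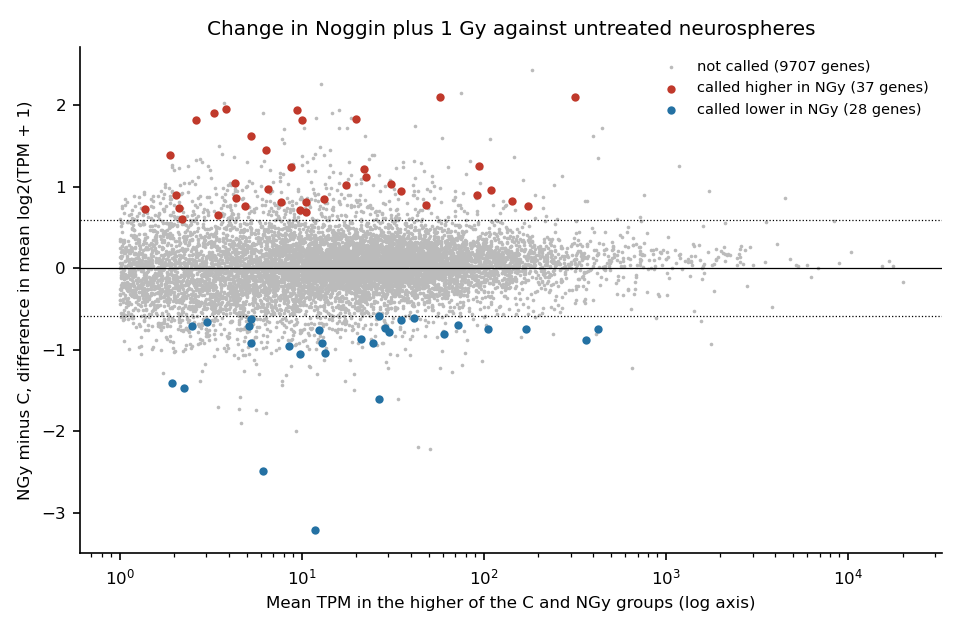
Change in NGy against C for each of the tested genes. The x axis is the mean TPM of the group with the higher mean (log axis), the y axis the difference of the group means in log2(TPM + 1), dotted lines mark 1.5-fold, and the 37 rises (red) and 28 falls (blue) that were called lie across the whole range of levels among many uncalled genes (grey) with changes of the same size.

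The largest called rise was that of ENSRNOG00000005695. It measured 81.1, 69.4 and 61.5 TPM in the C samples (MO1, MO3, MO4) and 240.1, 498, 266 and 270.4 TPM in the NGy samples (MO17 to MO20), a log2 change of 2.10 ± 0.26 (SE; adjusted p = 0.0292). Every other treatment group also lay above C, with mean log2 differences of 1.14 in N, 0.89 in CGy, 0.93 in A and 1.29 in AGy. The omitted control MO2 had 296 TPM, which is within the range of the NGy samples, so the separation of this gene holds for 3 of the 4 controls. Against the single treatments the NGy level was higher by 0.96 (N; adjusted p = 0.0829) and 1.21 (CGy; adjusted p = 0.141), and neither difference passed the test.

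The second largest rise, that of ENSRNOG00000002382, followed Noggin. Its C samples had 12.7, 14.7 and 10.7 TPM and its NGy samples 58.2, 44.7, 66.3 and 62.3 TPM, a log2 change of 2.10 ± 0.16 (adjusted p = 0.0147). The N samples, at 45.5 to 59.3 TPM, covered nearly the same range as NGy, and the CGy samples, at 8.36 to 14.3 TPM, that of C. NGy exceeded CGy by 2.20 (adjusted p = 0.00305), whereas NGy and N differed by 0.13 (adjusted p = 0.517). A and AGy samples stayed between 10.1 and 15.6 TPM, and MO2 was lower still, at 5.42 TPM. The lowest of the samples with Noggin, at 44.7 TPM, was thus far above the highest without it, at 15.6 TPM.

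A further 4 rises among the first 8 were higher in NGy than in each single treatment, by both tests. The gene with the third largest rise had 0.25, 0.297 and 0.0534 TPM in C, 0.536 to 1.31 TPM in N, 0.43 to 0.888 TPM in CGy and 1.87, 3.21, 5.4 and 4.96 TPM in NGy. Its change against C was 1.95 ± 0.28 (adjusted p = 0.0411), and no NGy sample came as low as the highest N sample. The gene with the fourth largest rise went from 1.02, 1.84 and 2.31 TPM in C to 7.38, 7.48, 10.6 and 12.1 TPM in NGy, with 4.12 to 6.13 TPM in N and 1.56 to 2.36 TPM in CGy. Here N lay between the controls and the combined treatment, and CGy could not be set apart from C by its range. The fifth gene was at 0.237 TPM or less in C, 1.32 to 2.38 TPM in N, 0.41 TPM or less in CGy and 2.47 to 3.99 TPM in NGy. The eighth gene was at 1.58 to 2.4 TPM in C, 3.1 to 5.61 TPM in N, 1.58 to 2.9 TPM in CGy and 6.5, 7.78, 13.3 and 12.6 TPM in NGy. For these 4 genes NGy exceeded N by 0.65 to 1.24 (adjusted p = 0.0233 to 0.0411) and CGy by 1.49 to 1.77 (adjusted p = 0.00305 to 0.0444). In all 4 of them the 2 NGy samples MO19 and MO20 were above MO17 and MO18, and the A and AGy samples were at or near the C level, at no more than 2.09 TPM.

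In a second set of rises, NGy differed from N but not by the test from CGy. The gene with the eleventh largest rise was at 0, 0.298 and 0 TPM in C and at 0 to 0.291 TPM in N, against 0.973 to 1.84 TPM in CGy and 1.55, 2.59, 1.38 and 2.02 TPM in NGy. NGy exceeded N by 1.42 (adjusted p = 0.00515), but CGy by only 0.24 (adjusted p = 0.518). MO2 had 1.82 TPM of it, again as high as NGy. A more abundant gene of this kind, the twentieth by size, had 56.4, 54.3 and 55.5 TPM in C, 55.9 to 70.2 TPM in N, 78.4 to 93.5 TPM in CGy and 106, 130, 98.9 and 102 TPM in NGy. The C and N ranges overlap, and CGy and NGy lie above both. The unirradiated A samples, at 67.2 to 88.9 TPM, were also above the 3 C samples and overlapped CGy, and MO2 had 95.1 TPM. The log2 change against C was 0.96 ± 0.11 (adjusted p = 0.0292) and that against N 0.77 (adjusted p = 0.00911). The twenty-sixth had 70.0, 81.9 and 92 TPM in C, 71.4 to 89.9 TPM in N, 104 to 128 TPM in CGy and 136, 149, 141 and 149.7 TPM in NGy, with a change against N of 0.82 (adjusted p = 0.00515). It was also higher in all 4 AGy samples (103 to 128 TPM) than in 2 of the 4 A samples (78.6 to 112 TPM).

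Over the 37 rises, 9 were at least 1.5-fold above C in N only, 11 in CGy only, 6 in both and 11 in neither. N and CGy were both above C in 34 of the 37, where over all tested genes N was above C in 56.7% and CGy in 57.4%. The genes were chosen for C values below NGy, and these differences share the C samples, so part of this agreement is built in. How many of all tested genes were 1.5-fold above C in N or CGy was not counted. The sixth and seventh largest rises showed overlapping ranges in CGy and NGy. The sixth was at 3.25 to 8.53 TPM in C, 14.5 to 20 TPM in CGy and 17.8 to 21.0 TPM in NGy, while the N samples ran from near 0 to 22.1 TPM. The seventh was listed at or near 0 TPM in all 3 C samples (0.0251 TPM at most), and at 1.58 to 3.28 TPM in NGy and 2.35 to 3.55 TPM in CGy. Its N samples ran from near 0 to 3.37 TPM, and MO2 had 0.586 TPM. The unirradiated A samples had 8.25 to 23.3 TPM of the sixth and 1.12 to 2.76 TPM of the seventh, so neither rise was particular to irradiated samples. NGy minus CGy was 0.12 (adjusted p = 0.62) for the sixth and -0.21 (adjusted p = 0.591) for the seventh, and neither passed the test.

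The largest called fall was that of ENSRNOG00000000376. It measured 6.24, 12.02 and 17.4 TPM in C and was listed at 0 in 3 of the 4 NGy samples and at 1.81 TPM in MO19, a log2 change of -3.21 ± 0.46 (adjusted p = 0.0411). Zeros occurred in every other group, including MO2, and single samples of N (13.4 TPM), CGy (14.4 TPM) and AGy (12.7 TPM) reached the C range. Within N, CGy and AGy the gene thus varied as widely as between C and NGy. The second largest fall, that of ENSRNOG00000007686, went from 2.18, 8.36 and 7.88 TPM in C to 0.003 TPM or less in MO17 and MO18, 0.284 TPM in MO19 and 0.328 TPM in MO20 (log2 change -2.49 ± 0.38, adjusted p = 0.0438). N and CGy each had samples near 0 and samples above 5 TPM, so both overlapped with C.

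The third largest fall was the mirror of the Noggin-linked rise. This gene had 20.4, 26.5 and 32.8 TPM in C and 9.2, 7.32, 7.79 and 7.48 TPM in NGy, a log2 change of -1.60 ± 0.16 (adjusted p = 0.0292). N was as low, at 5.28 to 9.15 TPM, and CGy was above or within the C range, at 27.9 to 55.8 TPM. NGy was below CGy by 2.20 on the log2 scale (-2.20, adjusted p = 0.00764) and differed from N by 0.19 (adjusted p = 0.385). It was the only 1 of the 28 falls that was called against CGy. MO2, at 26.7 TPM, and the A and AGy samples, at 17.8 to 31.9 TPM, sat with the controls.

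**Figure D2:**
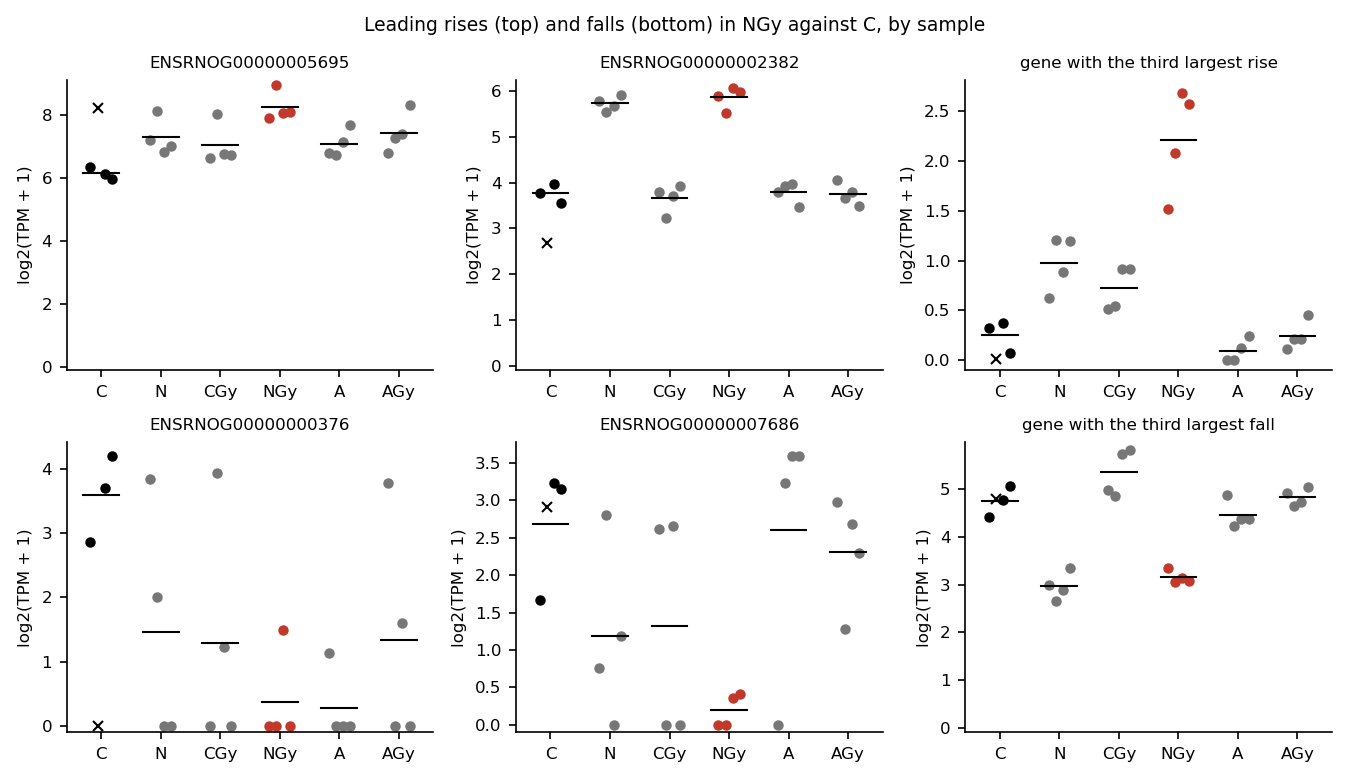
log2(TPM + 1) of the 3 largest called rises (top row) and the 3 largest called falls (bottom row) in each sample of the 6 groups. Points are samples, bars are group means, NGy is in red and the cross is the omitted control MO2; ENSRNOG00000002382 (12.7 against 58.2 TPM in MO1 and MO17) and the third fall split by Noggin, whereas MO2 lies at the NGy level for ENSRNOG00000005695 and for ENSRNOG00000000376.

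Most falls were smaller. Of the 28, 1 was at least 1.5-fold below C in N only, 5 in CGy only, 2 in both and 20 in neither. These differences share the C samples that chose the genes, so the counts are partly built in. The same shares over all tested genes were not counted. The gene with the sixth largest fall was lower in CGy and NGy than in C and N. It had 7.94, 10.4 and 11.2 TPM in C, 6.34 to 10.9 TPM in N, 2.52 to 5.66 TPM in CGy and 4.35, 4.25, 3.71 and 4.48 TPM in NGy. The unirradiated A samples had 14.2, 7.23, 6.11 and 5.83 TPM, so most of them also lay below the C samples. AGy samples had 3.55 to 5.57 TPM, and MO2 had 22.9 TPM. NGy was lower than N by 0.91 (-0.91, adjusted p = 0.0108) and differed from CGy by 0.08 (adjusted p = 0.86). The eighth was an intermediate case: C had 8.57, 7.96 and 9.15 TPM, N 8.26 to 8.78 TPM, CGy 5.15 to 8.47 TPM and NGy 3.44, 4.2, 3.78 and 4.4 TPM. Its samples overlapped among C, N and CGy, and NGy stood below them. The AGy samples, at 3.73 to 6.18 TPM, were also below all C and N samples, and 1 of them lay in the NGy range. The difference from N was -0.93 (adjusted p = 0.0022), and that from CGy, -0.68, did not pass the test (adjusted p = 0.0632). An abundant gene, the twelfth, fell from 397, 364 and 327 TPM to 233, 211, 164 and 184 TPM (log2 change -0.88 ± 0.14, adjusted p = 0.046), with 316 to 358 TPM in N and 251 to 289 TPM in CGy. The fourteenth fell from 62.1, 68.1 and 50.5 TPM to 31.3, 35.6, 33.8 and 34.6 TPM (log2 change -0.81 ± 0.12, adjusted p = 0.0411). N, at 61.8 to 69.1 TPM, stayed with C, and 3 of the 4 CGy samples did so too. In MO2 that gene was at 7.2 TPM, far below the other controls and below NGy.

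A score per sample, the mean difference from C over the called genes, shows how evenly they moved. Since these genes were chosen on C and NGy, the values of those groups are a description. Over the 37 rises the score was 1.16 ± 0.06 (SD, n = 4) in NGy, 0.59 ± 0.15 in N, 0.61 ± 0.11 in CGy, 0.18 ± 0.13 in A and 0.48 ± 0.12 in AGy, with an SD of 0.15 in C (n = 3). Over the 28 falls it was -1.01 ± 0.02 in NGy, -0.39 ± 0.06 in N, -0.49 ± 0.12 in CGy, -0.24 ± 0.18 in A and -0.48 ± 0.15 in AGy. On both lists the NGy samples stood outside every other group, which the choice of genes favours. N and CGy lay between C and NGy with overlapping ranges, and so did AGy. A place in between is partly built in too, since the scores are differences from the C samples that chose the genes. MO2 had a score of 0.18 on the rises, just above the other controls, and of -1.21 on the falls, lower than any NGy sample. It was below all 3 other controls in 22 of the 28 falls and at or under the highest NGy sample in 17, but reached the lowest NGy sample in only 5 of the 37 rises. Within these lists the falls rest on leaving this control out more than the rises do. MO2 was also low over all listed genes, with a median of 1.32 TPM against 2.63 to 2.91 TPM in the other controls. How often it lay below them over all tested genes was not counted, so the counts cannot be called particular to the falls.

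**Figure D3:**
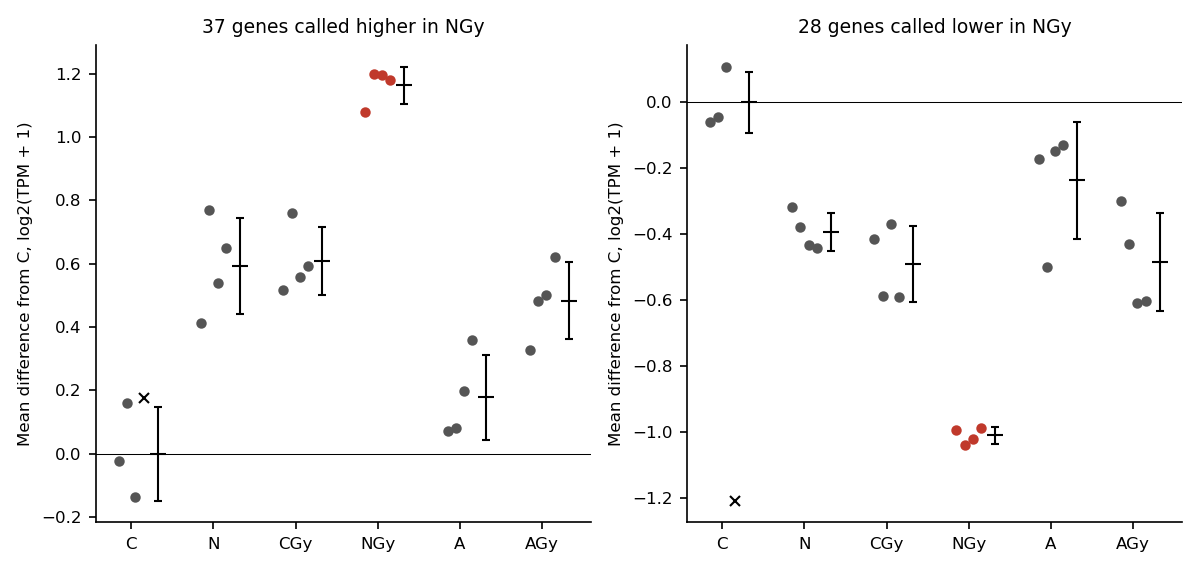
Mean difference from the C mean in log2(TPM + 1) over the 37 called rises (left) and the 28 called falls (right). Points are samples, the bars beside them are the group mean ± SD without MO2 (cross), and the NGy samples (red) lie at 1.08 to 1.20 and at -1.04 to -0.99, with N and CGy between them and C.

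Tests within the irradiated and within the Noggin-treated samples used no control sample. In NGy against CGy, which differ by Noggin, 24 genes were higher and 14 lower of 9686 tested (0.248% and 0.145%). The rises ranged from 0.62 to 2.20 and the falls from -2.20 to -0.59 in log2. In NGy against N, which differ by radiation, 91 genes were higher and 193 lower of 9765 (0.932% and 1.98%). The summed TPM of NGy, 650049 to 655264, overlapped neither N (615930 to 628348) nor CGy (622007 to 649751). Its part in these counts was not tested. Under quantile normalization NGy against N gave 122 rises and 133 falls. Of the 37 rises against C, 7 were also called higher against CGy and 13 against N, and of the 28 falls 1 and 12. None of the 65 was called in the opposite direction in either test. Of the 65, 4 were called in both, 4 against CGy only, 21 against N only and 36 in neither. These comparisons share the NGy samples with the one that chose the genes, so an excess over the background percentages is built in, and no inference is drawn from it.

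**Figure D4:**
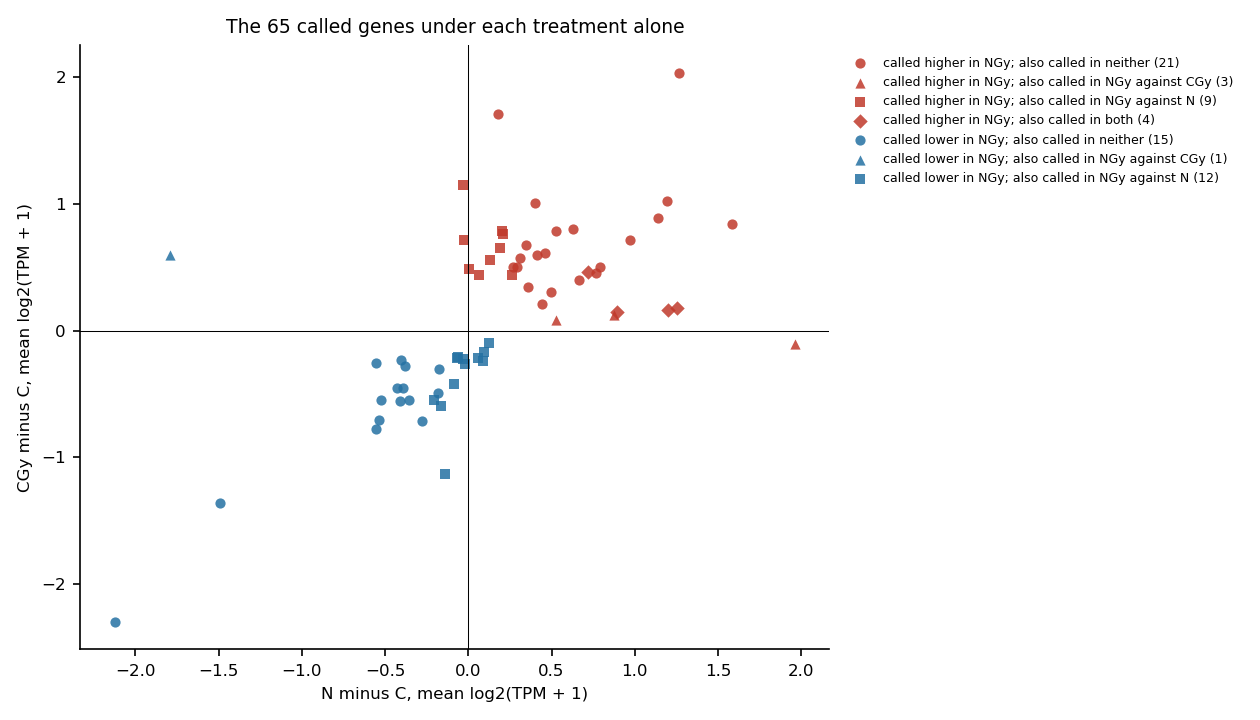
Mean difference from C in log2(TPM + 1) under Noggin alone (x axis) and under 1 Gy alone (y axis) for each of the 65 genes called in NGy against C. Colour gives the direction in NGy, symbols the further tests passed; 34 of 37 rises lie above 0 on both axes and 23 of 28 falls below 0 on both, and all 3 groups share the C samples.

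Whether the combined change differed from the sum of the single changes was tested as an interaction on the log2 scale. It was called for 1 gene of 9958 (0.01%), with 1648 at an unadjusted p under 0.05, and for 0 of the 65 genes. In that 1 gene the C samples had 5.89 to 7.79 TPM, N 12.6 to 14.4 TPM, CGy 9.3 to 9.85 TPM and NGy 7.75 to 9.72 TPM. Noggin or radiation alone gave values above C, and the combination stayed near the radiation level, an interaction of -1.02 ± 0.12 (adjusted p = 0.0133). Without MO18, MO5, MO8, MO15 or MO16 no gene was called (1289 to 1659 genes at an unadjusted p under 0.05), and with quantile normalization none either. Among the 37 rises the fitted interaction was above 0 in 19 and below 0 in 18, and among the 28 falls in 10 and 18. Over the 9772 genes tested in NGy against C it was above 0 in 41.1%, with a median of -0.07. The 65 genes were chosen on C and NGy, which both enter the interaction, so nothing is read from these counts.

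The A and AGy samples were not used to choose the genes and share no sample with C or NGy. AGy was above A in 34 of the 37 genes that were higher in NGy (median difference 0.28) and below A in 24 of the 28 that were lower (median -0.37). Over all tested genes AGy was above A in 48.3%, with a median difference of -0.01. The summed TPM also differed without overlap, from 615330 to 622464 in A and from 643344 to 655289 in AGy, as it did between C and NGy, and its part in these counts was not tested. The abundant twelfth fall, for example, had 386, 335, 357 and 342 TPM in A and 222, 254, 213 and 227 TPM in AGy, with no overlap. The fourteenth had 39.2 to 67 TPM in A and 25.4 to 40.4 TPM in AGy, which overlapped by 1 sample. Their differences, -0.63 and -0.84, were larger than the median. AGy was above A in 4 of the 28 falls, by 1.06 for the largest fall. Overlap of A and AGy was not counted over the called genes or over all tested genes. The genes that split by Noggin did not follow: AGy minus A was -0.04 for ENSRNOG00000002382 and 0.37, opposite to the direction in NGy, for the third largest fall. These are counts over genes of shared samples and carry no test.

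The C samples were more spread than the NGy samples. The median SD of a gene in log2(TPM + 1) was 0.197 over the 3 C samples and 0.129 over the 4 NGy samples. As a root mean square difference over the tested genes, pairs of C samples lay 0.373 to 0.593 apart, pairs of NGy samples 0.265 to 0.405 and pairs between the groups 0.400 to 0.704. MO3 lay nearer to the NGy samples (mean 0.404) than to the other controls (0.483), and MO4 lay farthest from both (0.653 and 0.552). The mean distance was 0.507 between the groups, 0.492 within C and 0.354 within NGy, so pairs between groups lay hardly farther apart than pairs of controls. The mean distance between groups exceeded that over all pairs within groups by 0.107, with p = 0.0286 in an exact one-sided permutation test over the 35 ways of choosing 3 of 7 samples, the smallest p it allows. A change of 1.5-fold was thus common without a call: 525 genes were past it upwards and 449 downwards. Of these 974, 442 overlapped between the groups, and MO3 was the control nearest to NGy in 306 of them.

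The spread was larger in weakly expressed genes. Among genes whose higher group mean was 1 to 5 TPM the median SD in C was 0.287, and among those of 100 TPM or more it was 0.148. Calls were found at all levels, with 16 of 2209 genes at 1 to 5 TPM (0.724%), 23 of 3085 at 5 to 20 TPM (0.746%), 18 of 3485 at 20 to 100 TPM (0.516%) and 8 of 993 at 100 TPM or more (0.806%). Only 5 genes went from under 0.5 TPM in all 3 C samples to 1 TPM or more in all 4 NGy samples, and 3 did the reverse. Near the limits of the call, the smallest called change was 0.59 and the largest adjusted p 0.0478. A further 18 genes passed the adjusted p without reaching 1.5-fold.

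**Figure D5:**
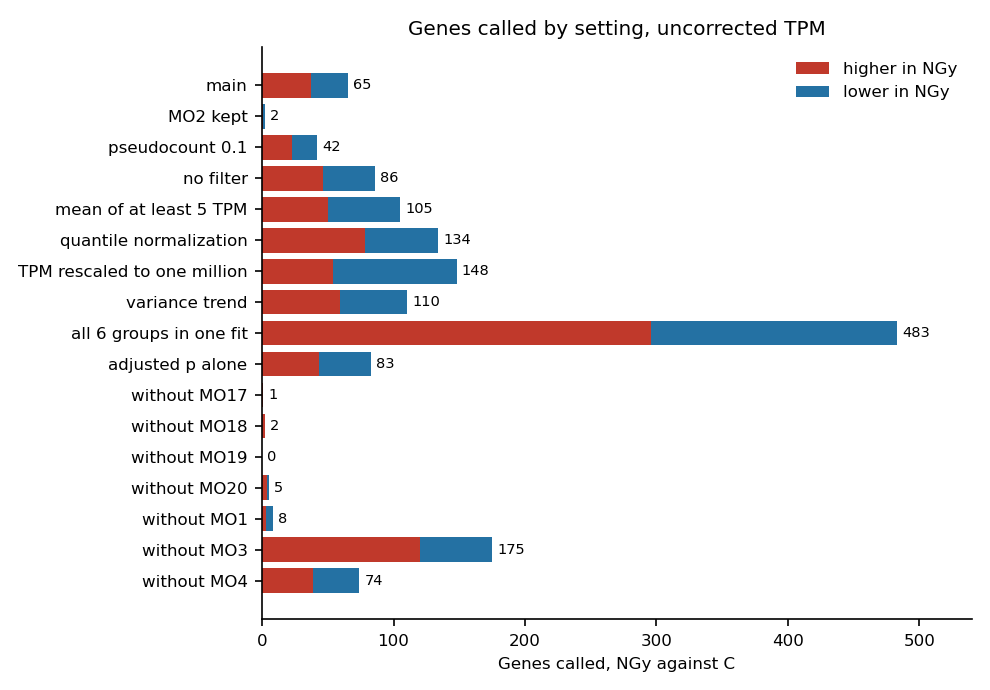
Number of genes called higher (red) and lower (blue) in NGy against C from uncorrected TPM under each setting, one bar per setting. The count is 65 in the main comparison and ranges from 0 without MO19 to 483 when the spread is estimated over all 6 groups.

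The corrected table gave more calls. It called 829 of 9747 genes (8.51%), 461 higher and 368 lower, among them all 65 genes with the same direction. The median SD of a gene fell to 0.0933 in C and 0.0868 in NGy after the correction, whereas the group means on the log2 scale were kept before values below 0 were set to 0. After that step 964 genes were past 1.5-fold, against 974 before correction. In the uncorrected values, 315 of the 829 genes overlapped between C and NGy and 643 had an unadjusted p under 0.05. The corrected calls in the other tests were 137 (NGy against CGy), 460 (NGy against N) and 2392 (interaction). The study used NOISeq to correct for potential batch effects seen in its principal component analysis. Because the group means were kept, the correction used the group labels and removed spread within groups. The test does not account for that step, and how far its p-values are too small was not tested.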

How the data were processed

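RNA of 24 neurosphere samples in 6 groups of 4 was sequenced from polyA-selected libraries. The authors deposited TPM per Ensembl gene, which Kallisto had estimated; the submitters' processing notes also name STAR 2.6.1. A second deposited table leaves out MO2 and holds values of another scale, 0.5 times the corrected TPM + 1: 1458 genes at 0 TPM in all samples were at 0.5, and log2 group means were kept to within 3.8e-09. It was doubled, reduced by 1 and set to 0 where negative (6.55% of values). Columns carry the study's sample names, which could be tied to groups but not to single entries of the labels. MO2 was left out of the main fits and is described beside them, and every other per-sample column was used.

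Uncorrected log2(TPM + 1) values of genes whose mean reached 1 TPM in a compared group were fitted with limma 3.58.1 in R 4.3.3 (lmFit, eBayes), with only the groups compared and with Benjamini-Hochberg adjustment over all genes tested. Fold changes on this scale understate those of low genes. Calls needed an adjusted p of at most 0.05 and 1.5-fold, the interaction the adjusted p alone. On simulated data for NGy against C (9772 genes, 200 changed, 20 simulations), 72.5% of genes changed by 1 in log2 and 93% of those changed by 2 were called, with a mean of 4.9 and 6.7 false calls. Whether these percentages and false calls hold for the measured samples, whose spread differed between C and NGy, was not tested. TPM keep no depth, so precision comes from the spread between samples only. Alternatives were the corrected table, MO2 kept, another pseudocount, other filters on low values, other scalings, a fit over all groups, a variance trend and each sample left out. Figures were drawn with matplotlib 3.10.9.

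The members and lists were chosen with earlier results of these data known. Named genes are the 10 largest called rises and falls without overlap; lower ranks described were chosen after their values were seen, to show single-treatment patterns. Of 16478 identifiers, 0 matched a symbol in the reference list (GRCr8), so 4 are given by identifier and the prepared pathway and cell type lists were not used.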

Additional observations from a re-analysis of the deposited data

Results flagged for a closer look

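Of 58 groups of 4 samples checked for a sample far from the other 3, 10 had one. The limit used gives about 1 in 20 only for independent, normally distributed values. TPM are skewed, the groups reuse the same genes and samples, and any value beside 3 zeros passes the limit. The count is therefore not set against chance. ENSRNOG00000005695 stood apart in the CGy sample MO14B, with 261 TPM against 99.1 to 107 TPM, and in the NGy sample MO18, with 498 TPM against 240.1 to 270.4 TPM. ENSRNOG00000000376 stood apart in MO14B (CGy) with 14.4 TPM against 1.35 TPM or less, in MO19 (NGy) with 1.81 TPM against 0, in MO9 (A) with 1.20 TPM against 0 and in MO21 (AGy) with 12.7 TPM against 2.03 TPM or less. The TPM of the listed genes summed to 655289 in MO23, against 643344 to 645052 in the other AGy samples. MO2 had 8627 genes at 1 TPM or more, against 9478 to 9520 in the other controls. The score over the 37 rises was 1.08 in MO17 and 1.18 to 1.20 in the other NGy samples, and the score over the 28 falls was -0.50 (-0.499) in MO10 and -0.17 to -0.13 in the other A samples.

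The effect of 1 Gy differed with and without Noggin in 1 gene by the interaction test, with an interaction of -1.02 in log2.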

How the results depend on the processing

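The count of genes called in NGy against C, 65, became 829 in the corrected table, 2 with MO2 kept, 42 with a pseudocount of 0.1, 105 with a minimum of 5 TPM, 134 with quantile normalization, 148 with rescaled TPM, 110 with a variance trend, 483 with all 6 groups in one fit and 0 to 175 with a sample left out. With MO2 kept, the median change of all genes moved to 0.18 in log2. Without a filter it was 86, and with the adjusted p alone 83. NGy against CGy, 38 genes, gave 137 in the corrected table and 17 to 53 with a sample left out. NGy against N, 284 genes, gave 460 and 149 to 341, and under quantile normalization 122 rises and 133 falls against 91 and 193. The interaction, 1 gene, gave 2392 in the corrected table, 0 with quantile normalization and 0 to 3 with a sample left out. The separation of 0.107 between the groups ranged from 0.0685 to 0.183 with a sample left out, where p was 0.0667 or 0.1, the smallest those sample numbers allow. All of these distances leave MO2 out, and the separation with MO2 kept is not given here. The cause of these moves was not tested. The alternatives for the distance were chosen after seeing the data. No single gene among the 10 largest rises and 10 largest falls reversed. Leaving out a sample could not reverse one, because their groups did not overlap. Calls were lost in 28 of 175 gene and setting pairs, 18 of them with MO2 kept. With a sample left out they were lost in 100 of 140. No paired analysis was possible because the columns could not be tied to single samples of the labels.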

Other observations

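Lists from other settings were followed between A and AGy. The A and AGy samples were part of the correction behind the first list and were not used for the other lists. Of the 461 rises and 368 falls called in the corrected table, AGy was above A in 401 and below A in 326 of the uncorrected values. For the list without MO3 these were 108 of 120 and 44 of 55, and for the list without MO4, 38 of 39 and 30 of 35. These lists were compared after the data were seen, and the counts carry no test.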
